A study of Mus musculus with 2 samples.

Results

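The Trem2 receptor chain was followed through the immune cells of the mouse retina by 6 genes, listed by name: the receptor Trem2, its adaptors Tyrobp and Hcst, the kinase Syk, the phospholipase Plcg2 and the phosphatase Inpp5d. They are 6 of the 31053 genes in the count tables, of which 18985 had at least 1 count in the cells kept. The retinal cells came from C57BL/6 mice perfused with PBS and were sorted for CD45, which marks immune cells including microglia. The library labelled knockout comes from Igfbpl1-/- retinas (its title spells the genotype Igfbpl-/1) and the other is labelled wildtype. Igfbpl1 encodes a secreted protein related to the binding proteins of insulin-like growth factors. The design text names 10 knockout and 10 wildtype mice of matched sex at an age of 8 to 10 months. Neither the allele and its deleted part nor the number of mice behind each library is in the labels, and no cell can be tied to a mouse. With 1 library per group no difference has a replicate check, so no test or p-value is given. All intervals are 95% and cover counting error only.

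Trem2 is a receptor of microglia and other macrophages that binds lipids, lipoproteins and cell debris and has no signalling tail of its own. It pairs in the membrane with Tyrobp, also called DAP12, whose tail carries an ITAM, a motif with a pair of tyrosines that recruits the kinase Syk once phosphorylated. Syk activates Plcg2, which cleaves a membrane phosphoinositide and raises calcium, while Hcst, also called DAP10, links the same receptors to PI3-kinase. Inpp5d, also called SHIP1, removes a phosphate from the lipid that PI3-kinase makes and acts as a brake. In the brain, Trem2 and Tyrobp are known for the passage of microglia to a state marked by lipid and lysosome genes such as Spp1, Gpnmb, Fabp5 and Lgals3.

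The pair of adaptor tails is shown first, because it is the difference in structure between the proteins that carry the Trem2 signal. The coding stretches were read from the GENCODE M21 transcripts Tyrobp-201 (codons 92 to 106 of 114) and Hcst-201 (codons 72 to 75 of 79), with the tyrosine codons in capitals.
Tyrobp: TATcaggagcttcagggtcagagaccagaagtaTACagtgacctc
Hcst: TACatcaacatg
The Tyrobp stretch holds 2 tyrosine codons within 45 bases and the Hcst stretch holds 1 within 12 bases. The genes of both adaptors are neighbours on chromosome 7 of GRCm38. Tyrobp lies at chr7:30413760-30417585 on the plus strand, with 5 exons, and Hcst at chr7:30417712-30419854 on the minus strand, with 4 exons, so that 126 bases separate their 3′ ends. Trem2 lies at chr17:48346401-48354147 on the plus strand, with 5 exons. Syk lies at chr13:52583173-52648792 (plus strand, 14 exons), Plcg2 at chr8:117498291-117635142 (plus strand, 33 exons) and Inpp5d at chr1:87620312-87720507 (plus strand, 28 exons).

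The library labelled knockout held 1785 barcodes and 7945713 UMIs (unique molecular identifiers, each standing for 1 captured transcript), and the library labelled wildtype 2735 barcodes and 11020717 UMIs. The cells kept were 1761 (median depth 4286 UMIs) in the library labelled knockout and 2695 (median depth 3910 UMIs) in the library labelled wildtype, and 1 barcode occurred in both libraries. Igfbpl1 went against the labels, with 29 counts in 27 barcodes of the library labelled knockout and 2 counts in 2 barcodes of the library labelled wildtype. A 3′ tag outside the deleted part would check nothing, so every direction below is one between libraries called by their labels.

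Cells were gated by the counts of marker genes, none of them a member of the chain. Microglia needed at least 3 distinct markers of 10 (P2ry12, Tmem119, Gpr34 and others) and made up 1466 cells (83.2%) of the library labelled knockout and 2375 cells (88.1%) of the library labelled wildtype. Spp1-high cells needed 10 UMIs over at least 2 of Spp1, Gpnmb, Fabp5 and Lgals3, and numbered 27 and 14 in the libraries labelled knockout and wildtype. Border macrophages needed 5 UMIs over at least 3 of 9 markers such as Mrc1, Pf4 and Ms4a7 (50 cells in the library labelled knockout, 61 in that labelled wildtype). Monocytes needed 5 UMIs over at least 3 of 11 markers such as Plac8, Ly6c2 and Ccr2 (35 cells in the library labelled knockout, 13 in that labelled wildtype).

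Among microglia all 10 microglial markers had counts and summed to 21248 CPM (counts per 1000000 UMIs of the class) in the library labelled knockout and 21499 CPM in that labelled wildtype. The monocytes held 11 of 11 monocyte markers in the library labelled knockout and 10 of 11 in that labelled wildtype, and their microglial markers summed to 1313 and 1574 CPM in the libraries labelled knockout and wildtype. The other gates were mixed. Border macrophages carried all 10 microglial markers at 9295 CPM in the library labelled knockout and 9075 CPM in that labelled wildtype, against 3510 and 3856 CPM of border markers. Lyve1 was at 0 among the border cells of the library labelled knockout, and the list of MHC class II and dendritic markers summed to 3759 CPM in those cells and to 8503 CPM in those of the library labelled wildtype. Spp1-high cells carried all 10 microglial markers at 5686 CPM in the library labelled knockout and 7076 CPM in that labelled wildtype, and the 4 genes of their own gate at 10521 and 5377 CPM. They were also deep, at a median of 10472 UMIs per cell in the library labelled knockout and 11027 in that labelled wildtype, while microglia had medians of 4287.5 and 3940. Doublets were not removed, and their part in these mixed gates was not tested.

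**Figure D1:**
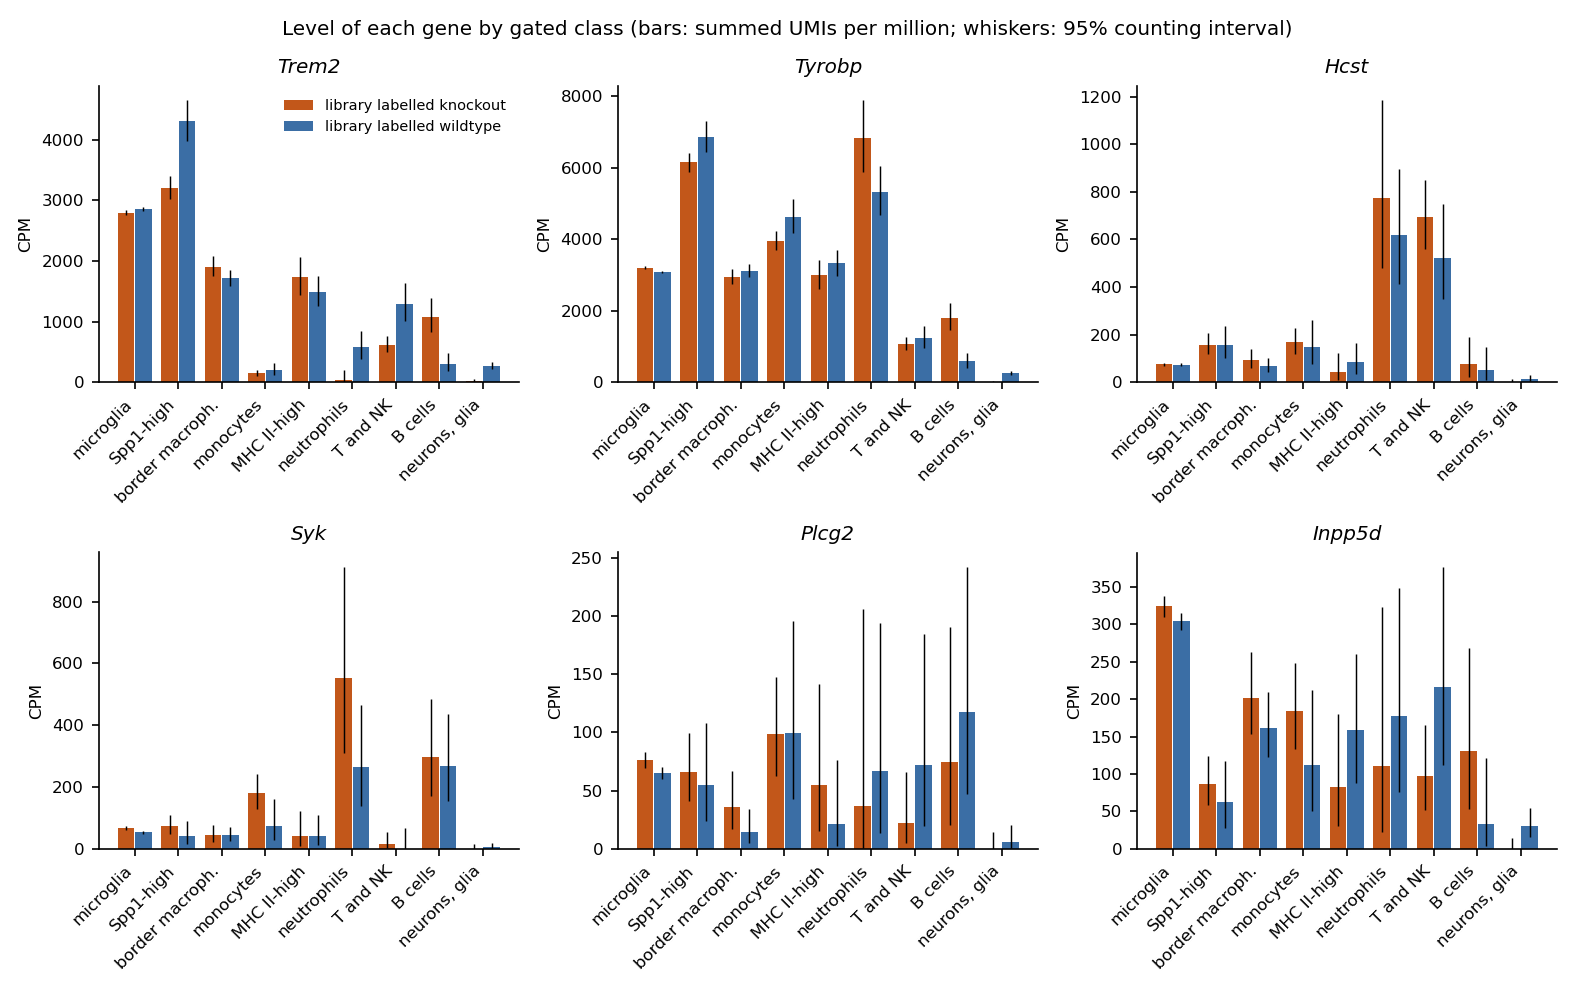
Level of each of the 6 genes in 9 gated classes, as summed UMIs per 1000000 (CPM, y axis from 0) with 95% counting intervals as whiskers, the library labelled knockout left of the library labelled wildtype in each pair. Trem2 is low in monocytes, at 145 CPM under the knockout label and 198 CPM under the wildtype label, while Tyrobp stays at 3961 and 4623 CPM there, and Inpp5d is highest in microglia.

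Trem2, the receptor, was a gene of microglia, Spp1-high cells and, at a lower level, border macrophages that was nearly missing from monocytes. Its level in microglia was 2799 CPM (interval 2758 to 2841) in the library labelled knockout and 2865 CPM (2831 to 2899) in the library labelled wildtype. In Spp1-high cells it was 3204 CPM (3016 to 3402) in the library labelled knockout and 4305 CPM (3974 to 4655) in that labelled wildtype. In border macrophages it was 1907 CPM (1747 to 2076) in the library labelled knockout and 1716 CPM (1580 to 1859) in that labelled wildtype. With all gated cells counted, both libraries thus ordered the classes alike. Spp1-high cells stood above microglia, microglia above border macrophages and monocytes last. No neighbours in that order had intervals that overlapped. Monocytes held 34 Trem2 counts (145 CPM, interval 101 to 203) in the library labelled knockout and 16 counts (198 CPM, 113 to 322) in that labelled wildtype. Their level was 0.0520 times that of microglia in the library labelled knockout and 0.0692 times in that labelled wildtype.

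Detection per cell drew the same line. After each cell was thinned to 1000 UMIs, Trem2 was seen in 91.0% of microglia of the library labelled knockout and 92.3% of those of the library labelled wildtype (98.4% and 98.6% before thinning). In Spp1-high cells the thinned shares were 88.9% and 92.9%, and in border macrophages 83.3% and 80.3%, for the libraries labelled knockout and wildtype. In monocytes they were 11.4% and 15.4% (34.3% and 30.8% before thinning). Retinal neurons and glia, which should lack the gene, had thinned shares of 4.35% and 8.22% (9.09% and 20% before thinning). Their median depths were 5452 and 4632 UMIs, where monocytes had 6640 and 6525. The monocyte shares stood only a few cells above these. In the library labelled wildtype 91 of the 97 Trem2 counts of neurons and glia lay in 14 cells that held P2ry12 or Tmem119. Without such cells the level was 25.4 CPM (9.34 to 55.4) under the knockout label and 22.4 CPM (8.21 to 48.7) under the wildtype label. Monocytes without such cells had 96.5 CPM (58.1 to 151) and 46.1 CPM (9.52 to 135). The intervals were apart only under the knockout label.

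The low monocyte level rested on few cells. Of the 16 Trem2 counts in monocytes of the library labelled wildtype, 13 lay in 1 cell, which left 3 counts (40.6 CPM) in the other 12. Without the cells that held a UMI of the microglial markers P2ry12 or Tmem119, monocytes kept 19 counts in 30 cells of the library labelled knockout (96.5 CPM) and 3 counts in 11 cells of the library labelled wildtype (46.1 CPM). Trem2 was at 0 UMIs in 23 of 35 monocytes of the library labelled knockout and in 9 of 13 of the library labelled wildtype.

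The excess of Trem2 in Spp1-high cells over microglia was modest and uneven. It was 1.14-fold (1.08 to 1.22) in the library labelled knockout and 1.503-fold (1.39 to 1.63) in the library labelled wildtype. Against microglia of at least 8000 UMIs it was 1.07-fold (0.998 to 1.15) under the knockout label, an interval that covered an equal level. Under the wildtype label it was then 1.59-fold (1.46 to 1.74). With cells holding P2ry12 or Tmem119 left out of both classes the ratios were 1.02 (0.874 to 1.20) and 0.834 (0.674 to 1.03). Single cells ranged widely: per 10000 UMIs, the lowest, median and highest Spp1-high cells had 0, 28.3 and 104 Trem2 UMIs in the library labelled knockout, and 8.63, 38.0 and 131 in that labelled wildtype. The range of each library covered the median of its microglia, which was 26.2 in the library labelled knockout and 27.4 in that labelled wildtype. A single cell gave 25.2% of the Trem2 counts of Spp1-high cells in the library labelled wildtype, and the level without it was 3572 CPM. Without cells holding P2ry12 or Tmem119 the level was 2988 CPM over 11 cells of the library labelled knockout and 2380 CPM over 4 cells of the library labelled wildtype, the second of these below its microglia.

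Tyrobp, the ITAM adaptor that Trem2 needs at the membrane, was present in all 4 classes and, with all cells counted, highest in Spp1-high cells. It stood at 3196 CPM (3153 to 3241) in microglia of the library labelled knockout and 3084 CPM (3049 to 3119) in those of the library labelled wildtype. In Spp1-high cells it reached 6146 CPM (5883 to 6418) in the library labelled knockout and 6862 CPM (6443 to 7302) in that labelled wildtype. Relative to microglia of the same library this was 1.92-fold (1.84 to 2.01) in the library labelled knockout and 2.23-fold (2.09 to 2.37) in that labelled wildtype. The receptor and its adaptor thus did not scale alike: microglia had 87.6 Trem2 counts per 100 Tyrobp counts in the library labelled knockout and 92.9 in that labelled wildtype, Spp1-high cells 52.1 and 62.7, and border macrophages 64.5 and 55.1.

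The Tyrobp excess depended on which cells were counted. Without cells holding P2ry12 or Tmem119, Tyrobp stood at 4191 CPM over 11 cells of the library labelled knockout, below 1.5 times its microglia, and at 6970 CPM over 4 cells of the library labelled wildtype. The 16 Spp1-high cells of the library labelled knockout that did hold those markers had 7121 CPM, and the 10 of the library labelled wildtype 6801 CPM. Microglia without those UMIs, 54 cells of the library labelled knockout and 74 of that labelled wildtype with median depths of 1500.5 and 1333 UMIs, had 5417 and 5895 CPM of Tyrobp. Against them the Spp1-high cells without those UMIs stood at 0.774 times (0.683 to 0.876) in the library labelled knockout. In that labelled wildtype they stood at 1.18 times (1.04 to 1.34), so that the 1.5-fold excess was found in neither library. Those microglia were far shallower than Spp1-high cells, and Tyrobp was highest in the shallowest microglia. In the libraries labelled knockout and wildtype it was 4324 and 5159 CPM at 500 to 2000 UMIs. At 4000 to 8000 UMIs it was 2914 and 2947 CPM. The part of depth in these ratios was not tested. Spp1-high cells were also set against the 77 and 101 deepest microglia, those with at least 8000 UMIs, in the libraries labelled knockout and wildtype, whose median depths of 9681 and 9073 UMIs came nearer to theirs. The Tyrobp excess was then 1.64-fold in the library labelled knockout and 2.20-fold in that labelled wildtype.

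Monocytes kept the adaptor with little of the receptor. Tyrobp was at 3961 CPM (3710 to 4225) in monocytes of the library labelled knockout, 1.24 times microglia. In those of the library labelled wildtype it was at 4623 CPM (4166 to 5117), 1.499 times microglia. With cells holding P2ry12 or Tmem119 left out of both classes, monocytes stood below microglia. The ratios were 0.686 (0.614 to 0.767) in the library labelled knockout and 0.861 (0.753 to 0.983) in that labelled wildtype. The microglia left were far shallower than monocytes, and the part of depth was not tested. Every monocyte of both libraries had at least 1 Tyrobp UMI. Among cells thinned to 1000 UMIs, Tyrobp without Trem2 was seen in 85.7% of monocytes of the library labelled knockout and 84.6% of those of the library labelled wildtype. Both genes together were seen in 84.2% and 86.3% of microglia, 85.2% and 85.7% of Spp1-high cells and 79.2% and 72.1% of border macrophages, for the libraries labelled knockout and wildtype. Monocytes had 3.67 Trem2 counts per 100 Tyrobp counts in the library labelled knockout and 4.29 in that labelled wildtype.

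**Figure D2:**
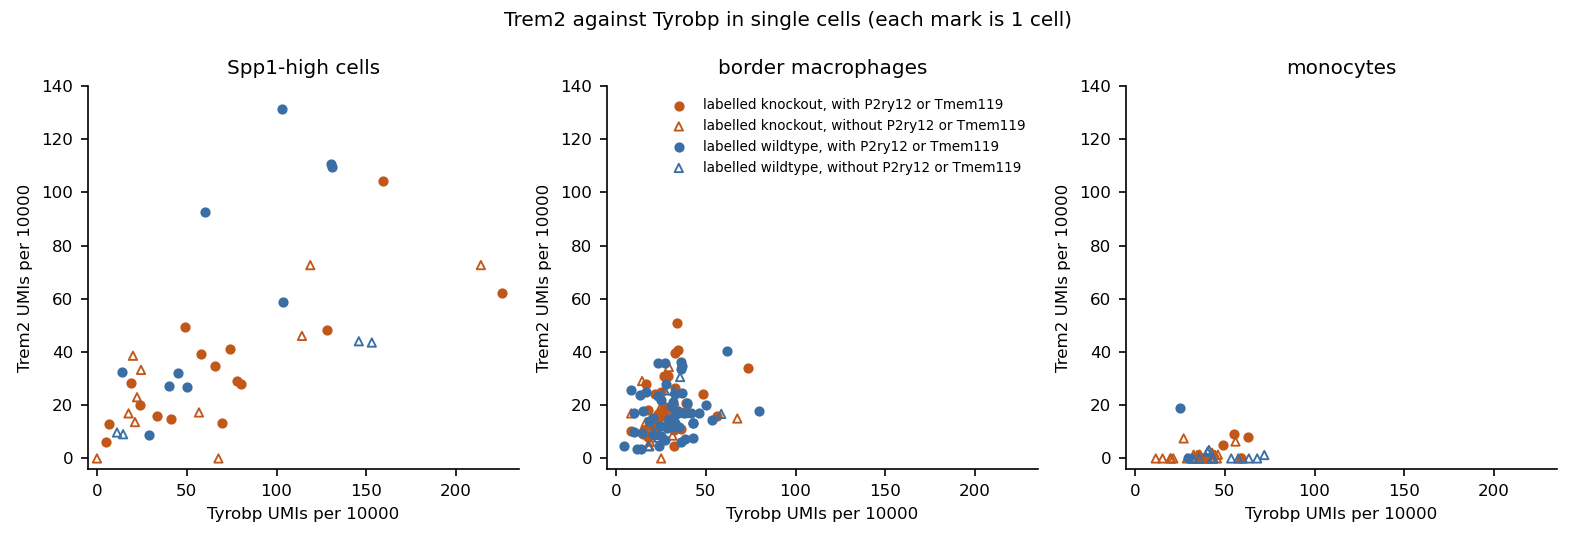
Trem2 UMIs per 10000 (y axis) against Tyrobp UMIs per 10000 (x axis) in single cells of each class, with the libraries in different colours, each mark 1 cell, filled circles for cells with a UMI of P2ry12 or Tmem119 and open triangles for cells without. Border macrophages form a cloud with both genes, and Spp1-high cells spread over Tyrobp values up to 225. Monocytes lie low in the plot, with Trem2 at 0 in 23 of 35 under the knockout label and 9 of 13 under the wildtype label. Their highest Trem2 values are 9.17 and 19.0.

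Hcst, the adaptor toward PI3-kinase, was higher in Spp1-high cells and monocytes than in microglia when all cells were counted. It stood at 74.7 CPM (68.1 to 81.7) in microglia of the library labelled knockout and 73.9 CPM (68.6 to 79.6) in those of the library labelled wildtype, a ratio of 1.01. Spp1-high cells had 158 CPM from 53 counts in the library labelled knockout and 158 CPM from 23 counts in that labelled wildtype. These were 2.12-fold (1.56 to 2.82) above microglia in the library labelled knockout and 2.14-fold (1.35 to 3.24) in that labelled wildtype. Without cells holding P2ry12 or Tmem119 the Spp1-high levels were 80.8 and 94.4 CPM in the libraries labelled knockout and wildtype, neither of them 1.5 times microglia. Microglia without those markers had 126 and 136 CPM, above these Spp1-high cells. The ratios were 0.643 (0.243 to 1.63) in the library labelled knockout and 0.697 (0.1997 to 1.99) in that labelled wildtype. Hcst too was highest in the shallowest microglia. In the libraries labelled knockout and wildtype it was 113 and 123 CPM at 500 to 2000 UMIs. At 4000 to 8000 UMIs it was 63.8 and 75.6 CPM. Monocytes had 167 CPM (39 counts) in the library labelled knockout and 149 CPM (12 counts) in that labelled wildtype, 2.23 and 2.01 times microglia. Cells holding P2ry12 or Tmem119 were then left out of both classes. The monocyte ratios were 1.01 (0.498 to 2.15) in the library labelled knockout and 1.249 (0.524 to 2.86) in that labelled wildtype. Border macrophages had 93.9 and 69.3 CPM in the libraries labelled knockout and wildtype, with intervals that covered the microglial level.

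Hcst was highest outside the macrophage classes. T and NK cells, in which DAP10 serves the receptor NKG2D, had 695 CPM over 20 cells of the library labelled knockout and 522 CPM over 6 cells of the library labelled wildtype. Neutrophils had 775 CPM over 12 cells of the library labelled knockout and 620 CPM over 17 of the library labelled wildtype. The balance of the adaptors therefore turned with the class: microglia had 2.34 Hcst counts per 100 Tyrobp counts in the library labelled knockout and 2.397 in that labelled wildtype, neutrophils 11.4 and 11.6, and T and NK cells 65.5 and 42.0. Many of the T and NK cells held P2ry12 or Tmem119, and in the 12 cells of the library labelled knockout and the 2 of the library labelled wildtype that did not, Hcst had 59 and 4 counts while Tyrobp had 11 and 0.

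Syk, the kinase that docks on the phosphorylated ITAM, was highest in monocytes among the 4 classes in the library labelled knockout, while in that labelled wildtype its order was not detectable at this depth. It stood at 67.1 CPM (60.9 to 73.8) in microglia of the library labelled knockout and 52.5 CPM (48.1 to 57.3) in those of the library labelled wildtype. Spp1-high cells had 74.7 CPM (25 counts) in the library labelled knockout and 41.3 CPM (6 counts) in that labelled wildtype, so that they lay above microglia in the library labelled knockout and below it in the library labelled wildtype. Border macrophages had 43.3 CPM in both libraries, from 12 counts in the library labelled knockout and 15 in that labelled wildtype. Monocytes of the library labelled knockout had 180 CPM (42 counts, interval 130 to 243), which was 2.68 times microglia, and those of the library labelled wildtype 74.4 CPM (6 counts, interval 27.3 to 162), which was 1.42 times. Without the 1 monocyte with the most Syk counts the level in the library labelled wildtype was 51.5 CPM (14.0 to 132), an interval that covers the level of its microglia. Syk, which also serves the antigen receptor of B cells, was at 298 CPM in the 10 B cells of the library labelled knockout and 269 CPM in the 16 of the library labelled wildtype. In neutrophils it was at 554 CPM in the library labelled knockout and 266 CPM in that labelled wildtype.

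Plcg2, the phospholipase below Syk, stood at 75.9 CPM (69.3 to 83.0) in microglia of the library labelled knockout and 65.1 CPM (60.1 to 70.4) in those of the library labelled wildtype. Border macrophages held 10 counts in the library labelled knockout (36.1 CPM) and 5 in that labelled wildtype (14.4 CPM), or 0.476 and 0.222 times microglia. Spp1-high cells had 65.7 and 55.0 CPM from 22 and 8 counts in the libraries labelled knockout and wildtype, and monocytes 98.4 and 99.2 CPM from 23 and 8 counts. The counting intervals of both classes covered the microglial level in both libraries, so a difference from microglia was not detectable at this depth.

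Inpp5d, the phosphatase that acts as a brake, was highest in microglia among the 4 classes and had its lowest levels in Spp1-high cells. It stood at 324 CPM (310 to 339) in microglia of the library labelled knockout and 304 CPM (293 to 315) in those of the library labelled wildtype. Spp1-high cells had 86.6 CPM (29 counts, interval 58.0 to 124) in the library labelled knockout and 61.9 CPM (9 counts, interval 28.3 to 118) in that labelled wildtype. The ratio to microglia was 0.267 (0.178 to 0.385) in the library labelled knockout and 0.204 (0.0930 to 0.387) in that labelled wildtype. Border macrophages lay between, with 202 CPM in the library labelled knockout and 162 CPM in that labelled wildtype, as did monocytes with 184 and 112 CPM. The border and monocyte intervals overlapped in both libraries, and so did those of Spp1-high cells and monocytes in the library labelled wildtype, with 9 counts in each, where the levels without the cell with the most counts were 53.4 and 67.7 CPM.

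The low Inpp5d of Spp1-high cells kept its direction under all alternatives that gave a ratio, but not its size. These were 10 in the library labelled knockout and 7 in that labelled wildtype. Against microglia of at least 8000 UMIs the ratio was 0.365 in the library labelled knockout and 0.243 in that labelled wildtype. With each cell thinned to 1000 UMIs the log2 ratio of the library labelled knockout was -1.07, against -1.90 with all counts, and with equal weight per cell that of the library labelled wildtype was -1.25, against -2.30. The level without cells holding P2ry12 or Tmem119 was 71.8 CPM in the library labelled knockout and 18.9 CPM (1 count) in that labelled wildtype. With such cells left out of microglia too, the ratio under the knockout label was 0.437 (0.163 to 1.07), an interval that covered an equal level. Under the wildtype label that 1 count gave no ratio. No Inpp5d UMI was found in 15 of 27 Spp1-high cells of the library labelled knockout and in 8 of 14 of the library labelled wildtype. The unthinned shares of cells with a UMI were 44.4% and 42.9% there, against 66.5% and 63.3% in the shallower microglia of the libraries labelled knockout and wildtype.

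The chain as a set therefore did not move in step between classes when all gated cells were counted. A member was counted as apart where it had at least 50 CPM in the class or in microglia and differed at least 1.5-fold the same way in both libraries. Among Spp1-high cells 2 of 6 members (Tyrobp and Hcst) were higher than in microglia, where 12.1% of 3263 genes were, and 1 of 6 (Inpp5d) was lower, where 26.3% were. In border macrophages none of 6 was higher, against 5.59% of 3167 genes, and 2 of 6 (Plcg2 and Inpp5d) were lower, against 14.9%. In monocytes 1 of 6 (Hcst) was higher, against 20.5% of 3424 genes, and 2 of 6 (Trem2 and Inpp5d) were lower, against 25.7%. The median log2 ratio of the members over microglia in Spp1-high cells was 0.17 in the library labelled knockout and 0.17 in that labelled wildtype, where all genes had -0.19 and -0.05. In border macrophages it was -0.59 and -0.51 (all genes -0.20 and -0.24), and in monocytes 0.34 and 0.54 (all genes -0.04 and -0.07), for the libraries labelled knockout and wildtype. Inpp5d was the 1 member lower than in microglia in all 3 classes and both libraries by that size. Against microglia of at least 8000 UMIs this call was lost in the library labelled knockout for border macrophages, at 0.852 times (0.620 to 1.15), and monocytes, at 0.775 times (0.543 to 1.08). With cells holding P2ry12 or Tmem119 left out of both classes, border macrophages of the library labelled wildtype stood at 1.11 times (0.312 to 3.25, 5 counts). The ratio of Inpp5d to Syk differed between classes too. Microglia had 483 Inpp5d counts per 100 Syk counts in the library labelled knockout and 579 in that labelled wildtype. Spp1-high cells had 116 and 150, the second from 9 Inpp5d and 6 Syk counts.

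**Figure D3:**
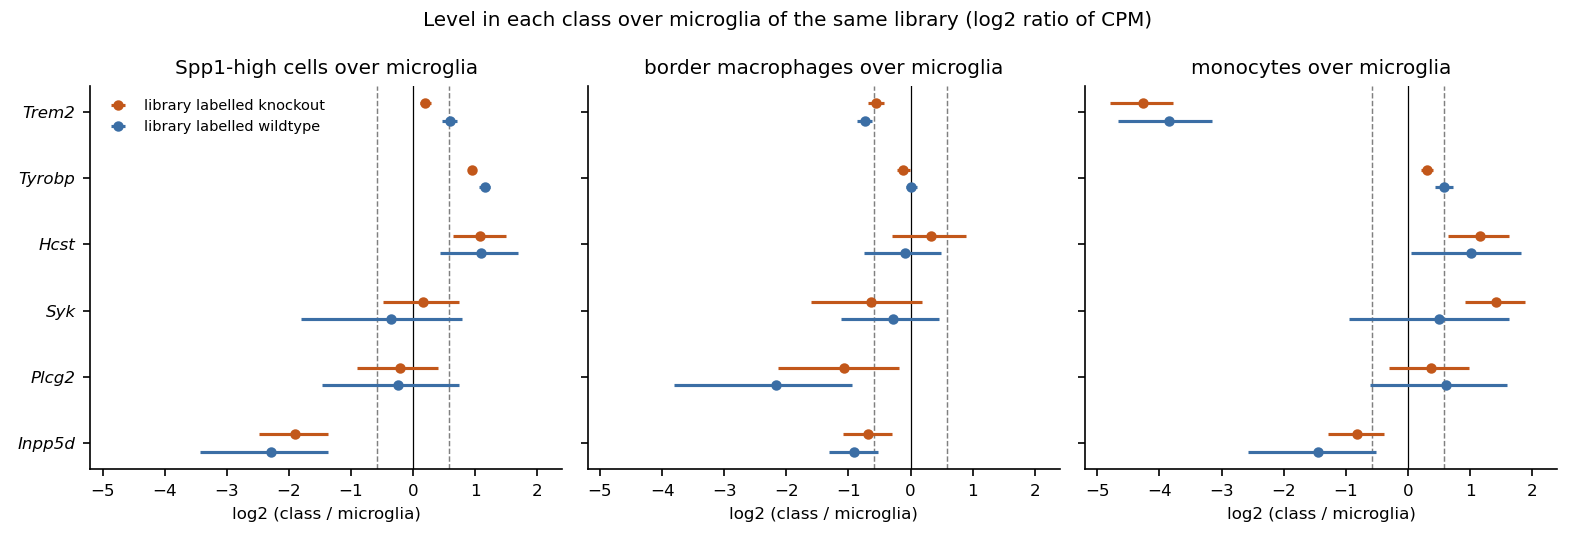
Level of each member in Spp1-high cells, border macrophages and monocytes over microglia of the same library, as a log2 ratio of CPM (x axis) with 95% counting intervals. Dashed lines mark 1.5-fold; Inpp5d lies left of 0 in all 3 panels, Tyrobp and Hcst lie right of 0 in Spp1-high cells, and Trem2 in monocytes lies far to the left, at -4.27 in the library labelled knockout and -3.85 in that labelled wildtype.

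Between the labels, the chain in microglia was nearly level. None of the 6 members differed 1.5-fold between the microglia of the library labelled knockout and those of the library labelled wildtype, where 1.02% of 3224 genes did. The ratio of the library labelled knockout to that labelled wildtype was 0.977 (0.959 to 0.996) for Trem2, 1.04 (1.02 to 1.06) for Tyrobp and 1.01 (0.897 to 1.14) for Hcst. Below the receptor it was 1.28 (1.12 to 1.46) for Syk, 1.17 (1.03 to 1.32) for Plcg2 and 1.07 (1.01 to 1.13) for Inpp5d. The median log2 ratio of the 6 members was 0.07, against -0.03 over all genes compared. The Syk ratio was above 97.9% of the 3224 genes and that of Plcg2 above 93.1%. Whether such differences exceed those between libraries of 1 genotype cannot be told with 1 library each. The thinned share of microglia with a UMI was 6.17% in the library labelled knockout and 5.14% in that labelled wildtype for Syk, 7.07% and 6.26% for Plcg2, and 24.4% and 25.4% for Inpp5d, which is the other way round from its level.

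In the smaller classes the gaps were wider, and so were those of all genes. In Spp1-high cells of the library labelled knockout Trem2 was 0.744 times (0.674 to 0.823) and Tyrobp 0.896 times (0.830 to 0.967) the level of the library labelled wildtype. The Trem2 direction turned without cells holding P2ry12 or Tmem119, at a log2 ratio of 0.33 over 11 cells of the library labelled knockout and 4 of that labelled wildtype, against -0.43 with all cells. Syk, at 1.81 (0.725 to 5.39), was the 1 of 6 members past 1.5-fold there, where 38.3% of 3213 genes were, with a median log2 ratio of -0.15. None of the 4 members at 50 CPM or more was past 1.5-fold in border macrophages, where 25.3% of 3155 genes were. In monocytes Syk, at 2.42 (1.02 to 6.95), and Inpp5d, at 1.65 (0.793 to 3.85), were higher in the library labelled knockout, 2 of 6 members where 40.5% of 3294 genes were past 1.5-fold either way. With the main settings the members' shares were thus no higher than the background of all genes in any class.

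**Figure D4:**
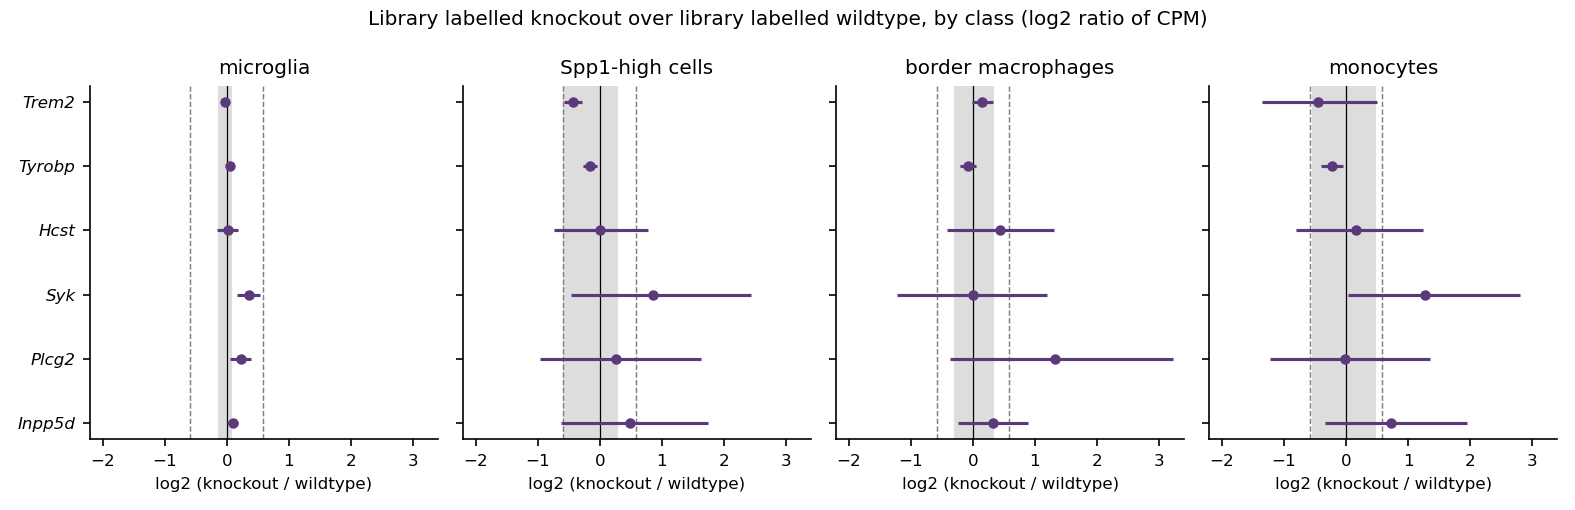
Ratio of the library labelled knockout to the library labelled wildtype for each member and class, as a log2 ratio of CPM (x axis) with 95% counting intervals, grey bands from the lower to the upper quartile of all genes compared and dashed lines at 1.5-fold. In microglia all 6 points lie between -0.03 and 0.35, while the intervals in the small classes are wide, as for Syk in Spp1-high cells at a ratio of 1.81 (0.725 to 5.39).

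Microglial states were set by other genes, and a cell could carry more than 1 of them. Each was compared with microglia in none of the states, 1092 cells in the library labelled knockout and 1804 in that labelled wildtype. Cycling microglia, with at least 2 of Mki67, Top2a, Stmn1 and Birc5, had the least Trem2: 0.549 times (0.464 to 0.645) in 19 cells of the library labelled knockout and 0.646 times (0.589 to 0.707) in 37 cells of the library labelled wildtype. Tyrobp in those cells was at 0.799 and 0.695 times in the libraries labelled knockout and wildtype. Chemokine-high microglia (Ccl2, Ccl3, Ccl4 and Ccl12) had somewhat less of both, with Trem2 at 0.936 and 0.838 times and Tyrobp at 0.874 and 0.854 times, in 168 cells of the library labelled knockout and 335 of that labelled wildtype.

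Microglia with the lipid genes leaned toward the pattern of Spp1-high cells at a smaller size. In Apoe-high microglia, with at least 5 Apoe UMIs, Tyrobp was at 1.32 times (1.27 to 1.38) in 131 cells of the library labelled knockout and 1.16 times (1.11 to 1.22) in 128 cells of the library labelled wildtype, and Inpp5d at 0.790 (0.663 to 0.935) and 0.726 (0.598 to 0.874). Trem2 in those cells was at 1.12 times in the library labelled knockout and 0.981 times in that labelled wildtype. Microglia with any UMI of the 4 genes of the Spp1-high gate, 63 and 74 cells, had Tyrobp at 1.35 and 1.17 times. Inpp5d in them was at 0.775 and 0.832 times, for the libraries labelled knockout and wildtype. Both states were set by UMI counts not scaled to depth. Microglia of at least 8000 UMIs had 237 and 255 CPM of Inpp5d, against 342 and 317 CPM at 4000 to 8000 UMIs. Their Tyrobp was at 3758 and 3117 CPM, against 2914 and 2947 CPM. The part of depth in the state ratios was not tested. Interferon-high microglia, with at least 3 of Ifit1, Ifit2, Ifit3, Isg15 and Rsad2, had Syk at 1.37 times (0.918 to 1.97, 32 counts) in 65 cells of the library labelled knockout and 0.443 times (0.250 to 0.728, 16 counts) in 119 cells of the library labelled wildtype. Plcg2 in those cells was at 0.603 and 0.724 times in the libraries labelled knockout and wildtype.

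**Figure D5:**
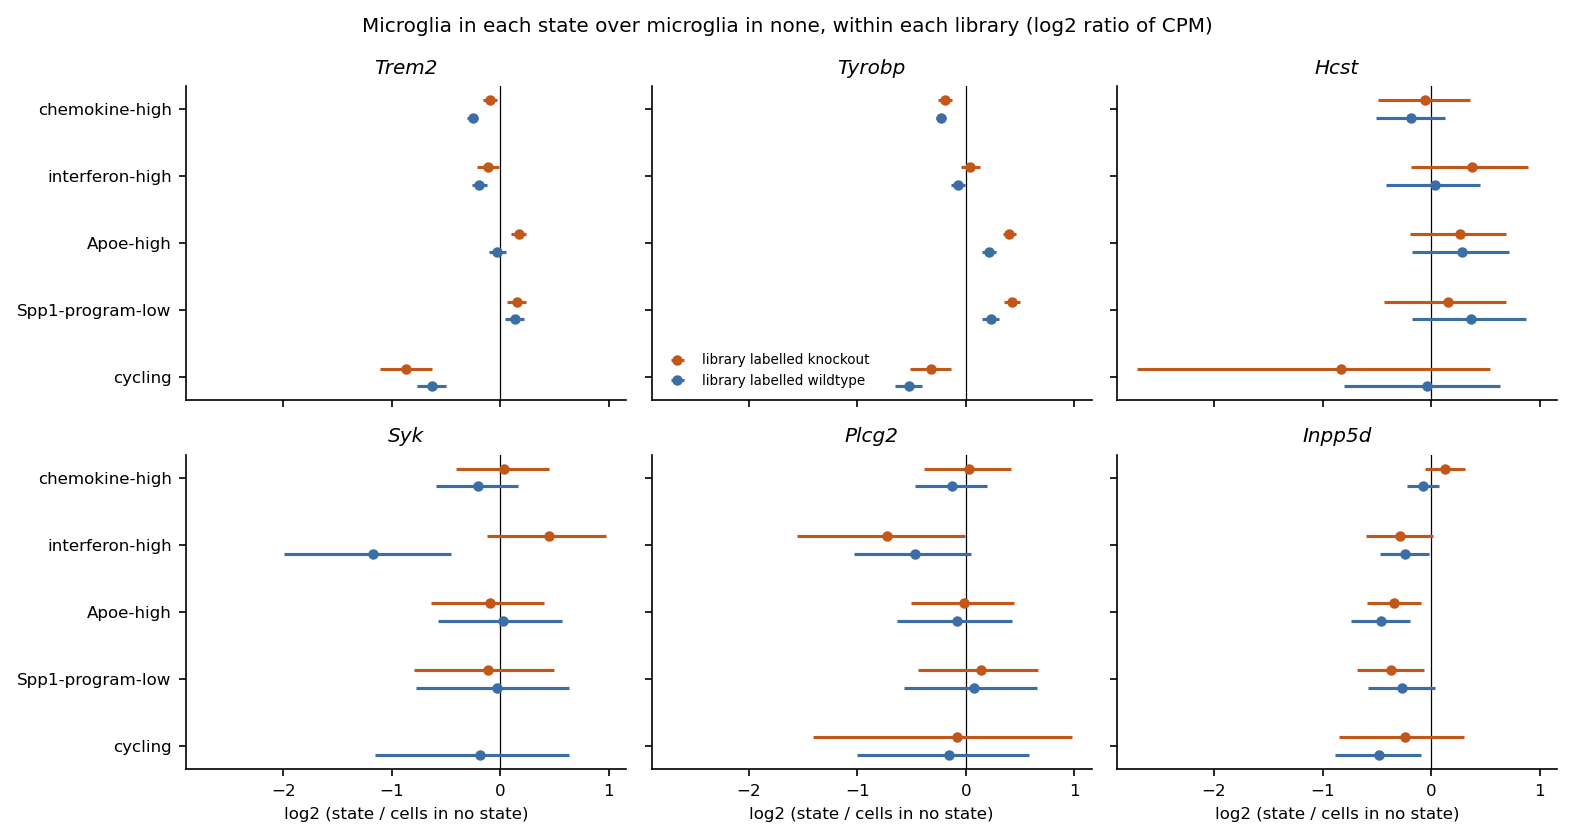
Level of members in microglia of each state over microglia in none of the states of the same library, as a log2 ratio of CPM (x axis) with 95% counting intervals, the library labelled knockout above that labelled wildtype. Trem2 is lowest in cycling microglia (ratios 0.549 and 0.646), and Tyrobp is right of 0 in the Apoe-high and Spp1-program-low states of both libraries.

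Of the wider pathway, genes were taken from 5 lists and compared in microglia where at least 50 CPM stood in 1 library. Of all 3224 genes compared there, 1.02% were past 1.5-fold between the labels, and the median log2 ratio was -0.03. A count of none in such short lists is near that share. Among 18 receptors that couple to Tyrobp or Hcst, 4 were compared and none was past 1.5-fold between the labels (median log2 0.02). Siglech, a microglial lectin receptor, was at 988 CPM in the library labelled knockout and 861 CPM in that labelled wildtype, and Clec5a, another Tyrobp partner, at 107 and 126 CPM. Of 15 Src family kinases, other kinases and related genes 7 were compared and none was past that size (median 0.09). Lyn, which can phosphorylate the ITAM, was at 439 and 456 CPM in the libraries labelled knockout and wildtype. Btk was at 71.8 and 90.02 CPM in them. None of 11 adaptors and calcium genes of 18 (median 0.03) and none of 4 brakes of 10 (median 0.02) was past 1.5-fold. Fcer1g, the other ITAM adaptor of macrophages, stood at 3036 CPM in the library labelled knockout and 3120 CPM in that labelled wildtype, and Ptpn6, the phosphatase SHP-1, at 293 and 315 CPM.

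Among the 7 genes listed as ligands, sheddases and related genes of Trem2, 5 were compared (median 0.11). Where 1.02% of all genes were past 1.5-fold, 1 of these 5 was. This was Apoe, a lipoprotein that Trem2 binds, at 3308 CPM in microglia of the library labelled knockout and 1353 CPM in those of the library labelled wildtype, a ratio of 2.45 (2.39 to 2.50). Lpl, a lipase of the same lipid program, was at 51.8 and 45.9 CPM, and Adam17, a protease that sheds Trem2, at 94.1 and 87.6 CPM in the libraries labelled knockout and wildtype.

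Between classes more genes of the lists were past 1.5-fold, as were more of all genes: in Spp1-high cells 26.3% of 3263 genes were lower than in microglia in both libraries and 12.1% higher. Of the listed genes called lower there, Pik3cd, Pik3cg and Dok1 had 3 counts or fewer in at least 1 library. In Spp1-high cells 3 of 4 receptors compared were lower than in microglia in both libraries and none was higher, with Siglech at 0.0574 times in the library labelled knockout and 0.0559 times in that labelled wildtype and Itgam, an integrin of macrophages, at 0.332 and 0.310 times. Among brakes 3 of 4 were lower there and none higher, with Ptpn6 at 0.417 times in the library labelled knockout and 0.371 times in that labelled wildtype. The list of kinases and related genes counted 4 lower and 1 higher of 8. Adaptors counted 3 lower and none higher of 11, a share near that of all genes. The list of Trem2 ligands, sheddases and related genes counted 3 higher (Apoe, Lpl and Ms4a6d) and 1 lower (Adam10) of 5. Apoe was at 15.1 times in the library labelled knockout and 20.97 times in that labelled wildtype, and Lpl at 3.35 and 7.64 times.

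Monocytes carried other partners of Tyrobp. Of 11 receptors compared, 7 were higher than in microglia in both libraries (Trem3, Treml4, Sirpb1c, Pilrb2, Cd300lb, Cd300ld and Cd300e) and 2 were lower (Clec5a, with no count in monocytes of the library labelled knockout, and Siglech), where 20.5% of 3424 genes were higher and 25.7% lower. All 7 stood at 2.98 CPM or less in the microglia of both libraries. They passed the 50 CPM minimum only through monocytes and could only be called higher, so their number is a description. Pilrb2 and Cd300lb rested on 8 counts each in monocytes of the library labelled wildtype. Trem3 had 48 counts in monocytes of the library labelled knockout and 10 in those of the library labelled wildtype. It had 0 in the microglia of either. Fgr, a Src family kinase of myeloid cells, was at 33.8 times (25.1 to 45.6) in the library labelled knockout and 23.6 times (14.1 to 38.0) in that labelled wildtype. In border macrophages 2 of 4 receptors were lower and none was higher, where 14.9% of 3167 genes were lower and 5.59% higher. Siglech was at 0.300 and 0.483 times and Itgam at 0.350 and 0.362 times in the libraries labelled knockout and wildtype.

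The genes most like each member were sought over 18 points, each a gated class of at least 10 cells in 1 library, by Pearson's r of log2(CPM + 10). The points of a library share its depth and free RNA, and mixed gates share cells with microglial markers, so r is a description. Trem2 was most like the complement genes C1qc, C1qa and C1qb (r of 0.98 for each). Tyrobp was most like Fcer1g (0.97), the transcription factor gene Spi1 (0.95) and Plek (0.95). Hcst was most like Ostf1 (0.91), Syk like Birc3 (0.92), Plcg2 like Cfl1 (0.86) and Inpp5d like Vsir (0.95). Among the members themselves, Trem2 and Tyrobp had an r of 0.50, Trem2 and Inpp5d 0.57, and Tyrobp and Inpp5d 0.78.

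Spi1 encodes PU.1, a factor of the macrophage lineage whose known binding core reads GAGGAA. The windows of 250 bases before to 50 after the start of Inpp5d and Trem2 (RefSeq, GRCm38.p6) are shown because these are the members that were lower than in microglia in monocytes, with GAGGAA or its reverse complement TTCCTC in capitals, on the plus strand.
Inpp5d chr1:87620062-87620361: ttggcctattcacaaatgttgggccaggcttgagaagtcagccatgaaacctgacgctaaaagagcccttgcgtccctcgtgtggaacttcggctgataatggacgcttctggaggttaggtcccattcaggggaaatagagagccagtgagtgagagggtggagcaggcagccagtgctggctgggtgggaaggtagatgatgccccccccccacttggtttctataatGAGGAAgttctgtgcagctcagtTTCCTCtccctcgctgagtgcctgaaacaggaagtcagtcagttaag
Trem2 chr17:48346151-48346450: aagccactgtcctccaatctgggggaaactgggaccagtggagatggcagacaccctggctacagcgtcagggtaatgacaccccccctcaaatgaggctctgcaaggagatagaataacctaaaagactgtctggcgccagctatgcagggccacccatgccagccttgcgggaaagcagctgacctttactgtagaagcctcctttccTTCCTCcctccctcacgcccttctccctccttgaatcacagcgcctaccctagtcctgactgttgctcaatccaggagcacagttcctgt
Inpp5d had 2 matches, Trem2 had 1 and Syk had 1 in 1 of its windows, while Tyrobp had no window. Thus 3 of the members' 6 windows, from 3 of the 5 members with a window, held the letters on either strand. Of all 32851 windows of that length, 9289 (28.3%) held them. A match describes the letters and nothing about binding in these cells.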

How the data were processed

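Single cells were sequenced from CD45-sorted retina by 10x 3′ chemistry, 1 library per group. The authors deposited raw UMI counts per gene and barcode, with Cell Ranger 3.1 and mm10 named per the submitters' processing notes. Barcodes were kept at 500 UMIs, 250 genes and at most 15% mitochondrial counts (24 removed from the library labelled knockout, 40 from that labelled wildtype). Each cell entered 1 class by its marker counts. No doublet caller was run, so doublets remain. Counts were summed per class and library and given as CPM with exact Poisson intervals, shares with Clopper-Pearson intervals, and ratios with the exact interval of the split of their counts. No ratio is printed where a class had 3 counts or fewer, though such genes enter the counts of genes past 1.5-fold. Shares were also taken after thinning cells to 1000 UMIs, leaving out 24 and 41 shallower microglia in the libraries labelled knockout and wildtype. Genes were called by size, at 1.5-fold and 50 CPM. Named pathway genes were the 2 highest, 2 lowest and most abundant of each list, beside others named for their role or count after their values were seen. The genes named as most alike lead the ranking by r. Members, lists and gates were chosen with earlier results of these data known. Alternatives changed the cell filter, gates, weighting, thinning, scaling and CPM minimum. The ratio step was tested on simulated data. Python 3.11.15, numpy 2.4.6, scipy 1.17.1, pandas 2.3.3 and scanpy 1.11.5 were used.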

Additional observations from a re-analysis of the deposited data

Results flagged for a closer look

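The barcodes that failed the cell filter held transcripts of the receptor and its adaptor in 1 library above what no count would allow. In the library labelled knockout 24 such barcodes held 3 Trem2 and 2 Tyrobp counts, where the limit of 3 counts that a count of 0 allows is 101 CPM. In the library labelled wildtype 40 such barcodes with 35782 UMIs held 14 Trem2 counts (391 CPM) and 36 Tyrobp counts (1006 CPM), where that limit of 3 counts is 83.8 CPM. These barcodes entered no comparison.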

How the results depend on the processing

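Of 1178 recomputed values, 947 stayed within their counting interval or within 1.5 times the count, 225 moved out of it and 6, all log2 ratios of at least 1.5-fold, turned their direction. Of the log2 ratios under 1.5-fold, 40 of 305 values had the other sign than with the main settings. The count of members 1.5-fold apart in microglia was 0 under every alternative run. Without cells holding P2ry12 or Tmem119 in the class the ratio that turned was Trem2 in Spp1-high cells over microglia in the library labelled wildtype, at a log2 ratio of -0.27 (4 cells), against 0.59. With such cells left out of microglia too, a choice also made after seeing the data, the log2 ratio over microglia in Spp1-high cells was -0.26 for Trem2 (wildtype), -0.37 (knockout) and 0.24 (wildtype) for Tyrobp, -0.64 (knockout) and -0.52 (wildtype) for Hcst and -1.19 for Inpp5d (knockout). It was -0.92 for Trem2 (knockout) and 0.15 for Inpp5d (wildtype) in border macrophages, and -4.92 for Trem2 in monocytes (knockout). Among the labels' ratios in Spp1-high cells Trem2 moved out of its interval and turned, to 0.33, and Hcst ranged from -0.79 to 0.76; Inpp5d in border macrophages ranged from -0.18 to 0.98. With stricter gates Tyrobp in Spp1-high cells was 1.18 (library labelled knockout) and 1.45 (wildtype), and Trem2 in border macrophages -0.68 (knockout). With equal weight per cell the microglial ratio of the labels was -0.075 for Trem2 and 0.016 for Tyrobp, and in Spp1-high cells of the library labelled wildtype Hcst was 2.04 and Inpp5d -1.25. Thinning to 1000 UMIs gave -0.10 for Trem2 and 0.0045 for Tyrobp in microglia, -1.07 for Inpp5d in Spp1-high cells of the library labelled knockout, and 1.29 for Tyrobp and 1.80 for Hcst in those of the library labelled wildtype. Without the 5% of cells with the most UMIs Tyrobp was 0.020 in microglia, and 1.05 (knockout) and 1.30 (wildtype) in Spp1-high cells. Median ratio scaling gave 0.079 for Tyrobp in microglia and shifted the median of all genes in Spp1-high cells by -0.15. Chosen after seeing the data, leaving out cells with P2ry12 or Tmem119 gave 0.39 for Tyrobp (knockout) and 0.11 (knockout) and 0.35 (wildtype) for Hcst in Spp1-high cells, -0.86 for Trem2 in border macrophages (knockout) and -4.86 in monocytes (knockout). Also chosen then, microglia of at least 8000 UMIs as the denominator gave 0.71 for Tyrobp and 0.63 for Hcst (knockout). The cause of these moves was not tested. A looser Spp1-high gate of 5 UMIs was a further added choice. No Leiden cluster was named Spp1-high or border macrophage, so that alternative gave no value for them. The share of all genes past 1.5-fold in border macrophages, 25.3%, was 38.2% at a minimum of 20 CPM, 15% at 100 CPM and 38.3% with stricter gates. The number of members 1.5-fold apart between the labels changed over the alternatives. In Spp1-high cells it ran from 0 (without the 5% of cells with the most UMIs, and at 100 CPM) to 4 (stricter gates). It ran from 0 to 2 in border macrophages and from 1 to 3 in monocytes. Apart from the border macrophage shares above, shares of all genes under these alternatives are not given here, so these counts are descriptions. No paired analysis was possible because each group has 1 library, and for the same reason no replicate could be left out. Depth limits Syk, Plcg2 and Inpp5d in the small classes, where they rest on 5 to 56 counts.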
